A study of Rattus norvegicus with 16 samples.

Results

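Interferon-stimulated and antigen presentation genes were followed across 16 RNA-seq libraries of the rat right ventricle. The set holds 46 of the 32754 gene entries in the count files. An entry was a member if its symbol was on a list of 21 genes of the interferon response and antigen presentation, or began with RT1- (the rat major histocompatibility complex, MHC), and if it had 10 or more counts in at least 4 libraries. The listed genes all met the count minimum, as did 25 of 44 RT1- entries, while 19 RT1- entries stayed under it and 8 of those were at 0 in every library. By role the members were 9 interferon-induced effectors, 4 signalling transcription factors, 2 MHC transactivators, 4 genes of peptide supply, 16 MHC class I entries and 11 MHC class II entries. Symbols that occur more than once were kept as separate entries, so RT1-DMa and RT1-DMb count as 2 members each, and RT1-CE16 is represented by the second of its entries. Nearest to the minimum were RT1-CE6 and the second RT1-DMa entry on the inside, each with 10 or more counts in 6 libraries, and RT1-M2 and RT1-M6-1 on the outside, with 3 and 2 such libraries.

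The libraries came from female Sprague Dawley rats aged 20 to 21 weeks in 4 groups of 4. KO PAB rats carried the ERalpha -/- genotype (loss of estrogen receptor alpha, called KO here) and had lived for 10 weeks with pulmonary artery banding (PAB), a constriction that makes the right ventricle pump against higher pressure. WT PAB rats were wild type and banded for the same time. KO SHAM and WT SHAM rats had the sham operation instead. The allele behind the genotype is not given in the sources used here, and no label states that each library is its own animal, so the p-values rest on the spread among these libraries, which may be technical.

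Interferons are cytokines that act through cell-surface receptors and JAK kinases. Type I interferons activate transcription factors, STAT2 and IRF9 among them, that bind the interferon-stimulated response element (ISRE) before genes of antiviral defence, and interferon gamma acts through the GAS element. Many of the same signals raise antigen presentation. MHC class I molecules pair a heavy chain with beta-2-microglobulin and show peptides cut by the immunoproteasome and moved by the TAP transporter, under the transactivator NLRC5. MHC class II molecules are made mainly by professional antigen-presenting cells under the transactivator CIITA, which is recruited to promoters that hold an X box and a CCAAT-type Y box. Heart tissue holds resident macrophages and endothelial cells that can express these genes beside the cardiomyocytes.

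The promoters of the roles were compared for exact matches to short motifs. RefSeq promoters (build GRCr8) were found for 36 of the 44 member symbols, and the 250 bases before each start were searched on both strands for the ISRE core (GAAA, any 2 bases, GAAA), the GAS element (TTC, any 3 bases, GAA) and the CCAAT box. Matches of different motifs may share bases, and each motif was counted for itself. An ISRE core was present before 10 of 36 member genes, against 3.41% of all 33469 promoters in the table. Effectors held it in 4 of 5 promoters, peptide supply genes in 2 of 4, signalling factors in 1 of 4, class I genes in 3 of 15 and class II genes in 0 of 8. Only exact matches of the core were counted. The class I promoters of RT1-A1, RT1-A2, RT1-CE5, RT1-CE10 and RT1-CE16 hold the near match TTTCACTTCT and were scored without a core. The effector promoter without an ISRE core was that of Mx1, and Isg15, Mx2, Usp18 and Ifit2 are not in the promoter table. The CCAAT box had another distribution: 8 of 8 class II and 12 of 15 class I promoters held it, against 1 of 5 effector promoters and 34.0% of all promoters. The promoters of RT1-A1, RT1-A2, RT1-CE5, RT1-CE10 and RT1-CE16 resemble each other over long stretches, so their matches are not independent counts. GAS elements were found before 4 of 36 members, against 7.67% of all promoters. A match describes letters and not a bound site, and the lack of an exact match does not show that an element is absent.

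The windows below are shown because they carry the ISRE core of the effectors that have one in the table, of Irf7 and of B2m, each read 5′ to 3′ on the strand of its gene with the core, or its reverse complement, in capitals. In RefSeq GRCr8 coordinates they lie at chr1:241527257-241527316 (+ strand), chr6:48788233-48788292 (− strand), chr3:67683993-67684052 (− strand), chr2:234005667-234005726 (+ strand), chr1:205800058-205800117 (− strand) and chr3:129549155-129549214 (+ strand). The first base of the match is 44 bases before the start of Ifit3, 147 before Rsad2, 59 before Ifih1, 31 before Gbp2, 69 before Irf7 and 150 before B2m.
Ifit3: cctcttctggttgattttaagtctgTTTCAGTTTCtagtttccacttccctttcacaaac
Rsad2: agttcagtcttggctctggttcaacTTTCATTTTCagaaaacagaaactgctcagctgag
Ifih1: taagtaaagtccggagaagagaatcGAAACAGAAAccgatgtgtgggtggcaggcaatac
Gbp2: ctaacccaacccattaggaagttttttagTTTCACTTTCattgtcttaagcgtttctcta
Irf7: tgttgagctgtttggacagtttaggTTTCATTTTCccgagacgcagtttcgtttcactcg
B2m: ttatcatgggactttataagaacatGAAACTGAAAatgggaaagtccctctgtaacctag

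For contrast, the CCAAT boxes of 3 class II genes are shown, again in the sense of the gene and with the box or its reverse complement ATTGG in capitals. They lie at chr20:4576987-4577046 (+ strand), chr20:4515339-4515398 (+ strand) and chr20:4758498-4758557 (− strand), with the first base 43, 49 and 107 bases before the start of the gene. None of these promoters held an ISRE core or a GAS element in the bases searched.
RT1-Ba: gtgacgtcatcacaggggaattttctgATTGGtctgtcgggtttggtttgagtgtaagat
RT1-Da: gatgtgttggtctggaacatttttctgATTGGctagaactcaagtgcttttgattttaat
RT1-DOa: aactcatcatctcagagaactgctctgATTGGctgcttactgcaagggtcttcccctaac

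**Figure D1:**
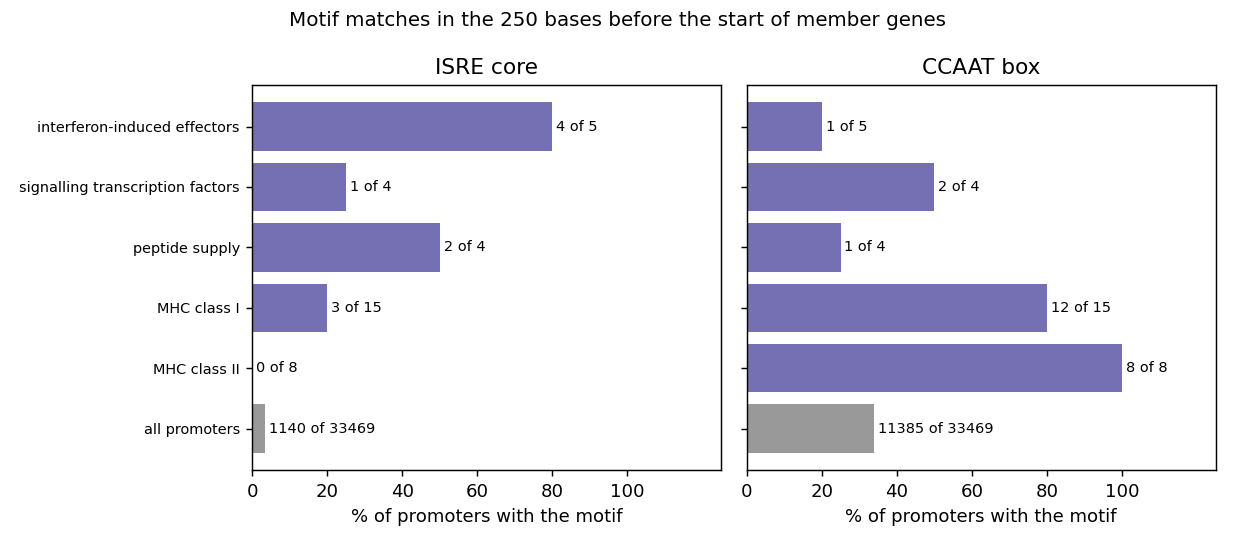
Share of RefSeq promoters (250 bases before the start, in percent, horizontal axis) that hold an ISRE core (left) or a CCAAT box (right), by role of the member genes and for all promoters of the table; the counts stand beside the bars. Effector promoters are highest for the ISRE core (4 of 5) and class II promoters for the CCAAT box (8 of 8).

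The libraries held 25778652 to 29210819 counts in KO PAB, 27733987 to 32411398 counts in WT PAB, 23270079 to 34718633 counts in KO SHAM and 22168110 to 27598074 counts in WT SHAM. Esr1, which encodes ERalpha, had 7 to 13 counts per KO PAB library, 70 to 131 per WT PAB library, 10 to 21 per KO SHAM library and 91 to 139 per WT SHAM library. Levels are given in CPM, the count of a gene as a share of its library's total in parts per 1000000, with the total scaled by TMM normalization. KO SHAM 4, WT SHAM 2 and WT SHAM 3 stood apart. Their 8 cardiomyocyte markers summed to 30466 to 41646 CPM, against 45678 to 61462 CPM in the other 13 libraries, and their 7 fibroblast markers to 2133 to 3474 CPM, against 851 to 1949 CPM. Their 6 mesothelial markers summed to 49.4 to 99.3 CPM, against 7.48 to 26.0 CPM in the others, and their 7 smooth muscle and pericyte markers to 945 to 3007 CPM, against 159 to 359 CPM. Banding results that lead are therefore also given without these 3 sham libraries. Of all counts the members took 0.122% to 0.144% in KO PAB libraries, 0.112% to 0.171% in WT PAB libraries, 0.111% to 0.169% in KO SHAM libraries and 0.117% to 0.182% in WT SHAM libraries.

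No member passed the test in any of the 7 comparisons. All 46 members were among the 13458 genes tested by edgeR's quasi-likelihood test with Benjamini-Hochberg adjustment, and 0 of 46 reached an adjusted p under 0.05. For banding averaged over genotypes 5.09% of all tested genes were called. At an unadjusted p under 0.05 there were 4 members higher and 1 lower in that comparison (5 of 46), beside 11.0% and 11.8% (22.7% together) of all tested genes. For banding in KO 0.632% of all tested genes were called, and at the unadjusted threshold 0 members were higher and 2 lower, beside 8.37% and 7.24% (15.6% together). Those 2 were RT1-CE6 and the second RT1-DMa entry, which have libraries at 0 counts, so no size is read from them. For banding in WT 0.00743% were called, with 4 members higher and 0 lower at the unadjusted threshold, beside 5.45% and 6.26% (11.7% together).

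The same share of tested genes, 0.00743%, was called for genotype averaged over surgeries, for genotype in SHAM and for genotype in PAB, and 0.0% for the interaction. At an unadjusted p under 0.05 genotype averaged over surgeries had 0 members on either side, beside 2.55% (higher) and 2.39% (lower) of all tested genes, 4.93% together. Genotype in SHAM had 1 member higher and 0 lower, beside 0.877% and 1.15% (2.03% together). Genotype in PAB had 0 higher and 2 lower, beside 2.25% and 2.27% (4.52% together), and the interaction had 0 above and 2 below 0, beside 1.06% and 0.706% (1.76% together). For genotype in PAB and for the interaction the 2 were again RT1-CE6 and the second RT1-DMa entry. DESeq2 called 3 members for averaged banding (Isg15, Mx1 and Mx2) and 0 in the other comparisons, and limma-voom called 0 members throughout.

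The median member differed more between single libraries than the median tested gene. The highest library over the lowest was 2.89-fold in the median of the 43 members that were above 0 in every library, against 1.89-fold over 13194 tested genes. Sampling noise widens this ratio at low counts, and some members were low, such as RT1-DOa with at most 17 counts in a library. Members were not matched to the tested genes by level. By role the median ratio was 3.15 for effectors, 2.24 for signalling factors, 5.79 for the 2 transactivators, 2.69 for peptide supply, 2.84 for class I and 3.86 for class II. The steadiest member was Cd74, the class II invariant chain, and the widest was RT1-Ba, a class II alpha chain, with 15.0-fold. In 1 library, WT PAB 3, 23 of 46 members had their highest level, against 2.59% of all tested genes. The lowest levels were most often in WT SHAM 3 (10 of 46 members) and WT PAB 1 (9 of 46), which held the lowest level of 2.24% and 7.11% of all tested genes.

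**Figure D2:**
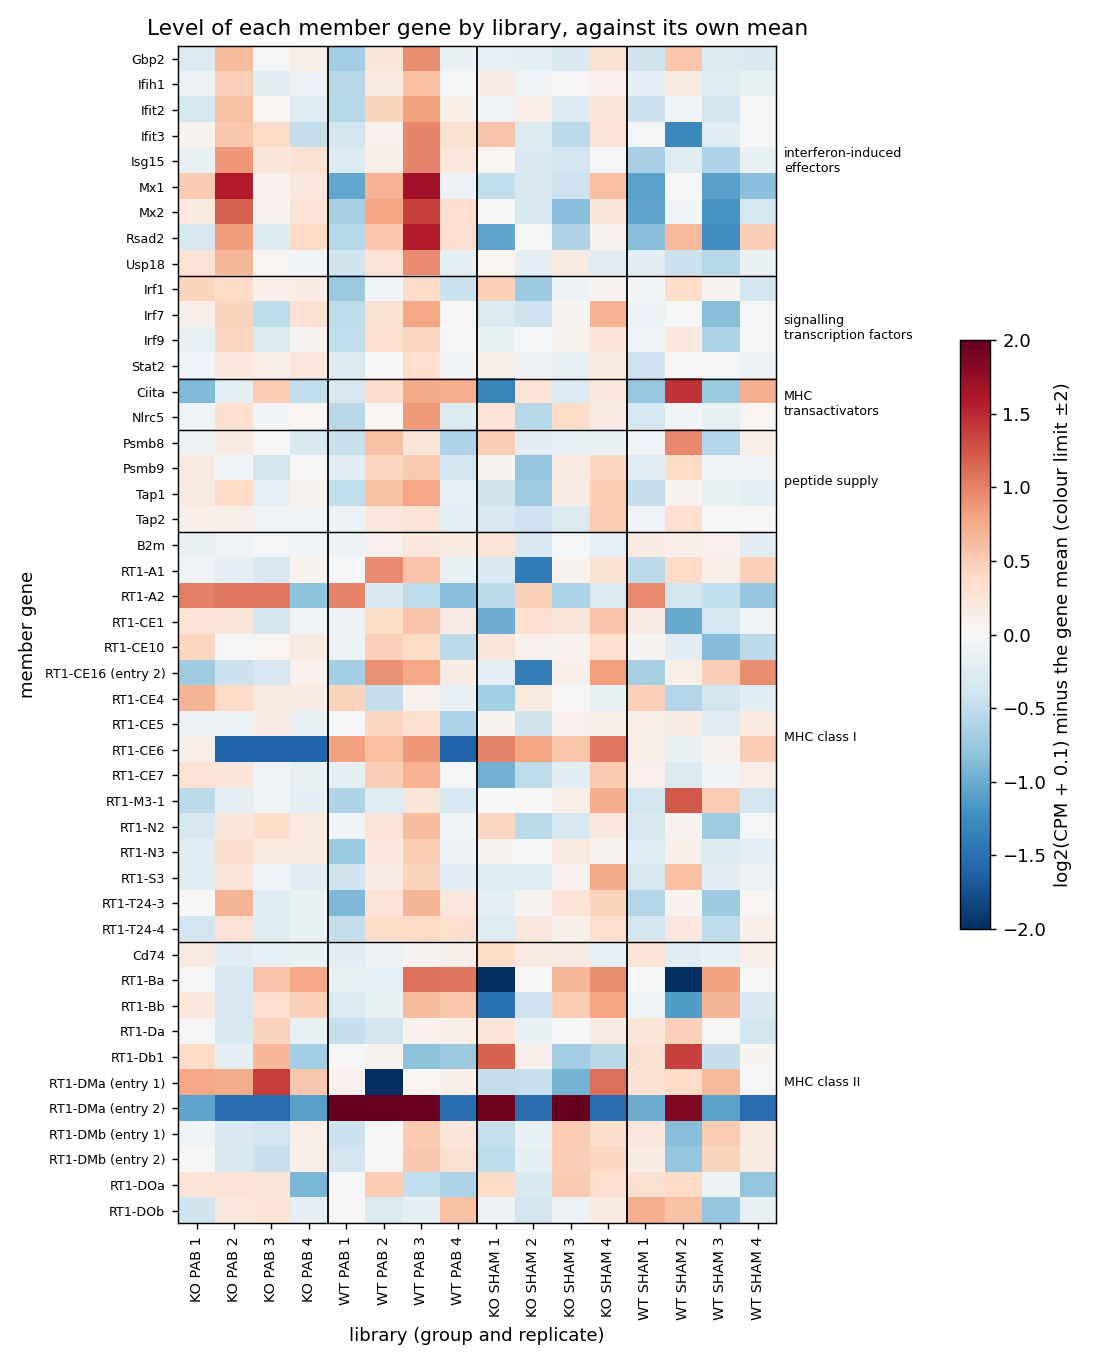
Level of each member (rows, by role) in each library (columns, by group and replicate), as log2(CPM + 0.1) minus the mean of the gene over the 16 libraries, with colours limited at ±2. WT PAB 3 is the highest library of 23 of 46 members, including all 9 interferon-induced effectors.

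Banding was compared first with both genotypes together. The 9 effectors all had a log2 fold change above 0, from 0.10 to 1.07 with a median of 0.45, while the median over all tested genes was −0.02 and 45.3% of them lay above 0. Of the 46 members 31 lay above 0 (median 0.10): 4 of 4 signalling factors, 3 of 4 peptide supply genes, 11 of 16 class I entries, 1 of 2 transactivators and 3 of 11 class II entries were the rest. Isg15, Mx2, Mx1 and Usp18 had the smallest p-values of the entries above 0, and RT1-M3-1 of those below. Without the 3 sham libraries 35 of 46 members lay above 0 (median 0.19), beside 7086 of 13583 tested genes (median 0.01). There 0 members passed, and 7 were higher and 1 lower at an unadjusted p under 0.05. The same threshold held 1788 (higher) and 1581 (lower) of the 13583 tested genes.

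Isg15 encodes a ubiquitin-like protein that is joined to other proteins after interferon. Its level was 4.22, 8.61, 5.57 and 5.78 CPM in KO PAB, 3.84, 5.17, 9.29 and 5.48 CPM in WT PAB, 4.84, 3.76, 3.57 and 4.61 CPM in KO SHAM and 2.95, 3.92, 3.01 and 4.23 CPM in WT SHAM. KO PAB 2 and WT PAB 3 were the highest libraries, and banded and sham libraries overlapped in both genotypes. The averaged log2 fold change was 0.64 (SE 0.18, adjusted p = 0.0553), and without the 3 sham libraries 0.65 (adjusted p = 0.102).

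Mx2 and Mx1 encode dynamin-like GTPases that block viruses inside the cell. Mx2 had 19.7, 39.3, 18.0 and 20.8 CPM in KO PAB, 11.0, 29.9, 45.3 and 21.9 CPM in WT PAB, 16.9, 14.0, 9.65 and 20.3 CPM in KO SHAM and 8.20, 16.6, 7.59 and 13.4 CPM in WT SHAM. Mx1 had 10.7, 22.5, 7.77 and 8.65 CPM in KO PAB, 3.54, 12.0, 24.0 and 6.83 CPM in WT PAB, 5.24, 5.91, 5.52 and 11.3 CPM in KO SHAM and 3.46, 7.41, 3.44 and 4.11 CPM in WT SHAM. Both genes were highest in WT PAB 3 and next highest in KO PAB 2, and WT PAB 1 lay within the WT SHAM range. For Mx2 the averaged log2 fold change was 0.96 (SE 0.28, adjusted p = 0.0644), or 1.09 (adjusted p = 0.0794) without the 3 sham libraries. That of Mx1 was 1.07 (SE 0.37, adjusted p = 0.103), or 1.39 (adjusted p = 0.0844) without them.

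Usp18, which removes ISG15 from proteins and damps the type I receptor, had 18.3, 23.6, 15.2 and 14.3 CPM in KO PAB, 11.3, 18.3, 28.7 and 13.0 CPM in WT PAB, 15.2, 13.0, 16.9 and 12.7 CPM in KO SHAM and 12.7, 11.0, 9.96 and 13.5 CPM in WT SHAM. The banded libraries spread more widely than the sham ones and overlapped them, and the log2 fold change was 0.45 (SE 0.17, adjusted p = 0.138), or 0.35 (adjusted p = 0.345) without the 3 sham libraries. Rsad2, the antiviral enzyme viperin, averaged 5.72 ± 2.33 CPM in KO PAB, 7.81 ± 4.92 CPM in WT PAB, 3.83 ± 1.35 CPM in KO SHAM and 4.76 ± 2.87 CPM in WT SHAM (SD, n = 4 each), and its averaged banding difference was 0.64 (SE 0.35, adjusted p = 0.291). In both banded groups the SD of Rsad2 was larger than the difference from the sham mean.

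Ifit2 and Ifit3 encode tetratricopeptide proteins that bind foreign RNA, and Ifit2 had the most counts of the effectors. Ifit2 had 24.2, 46.4, 31.6 and 26.1 CPM in KO PAB, 20.6, 41.9, 54.0 and 33.1 CPM in WT PAB, 29.2, 33.8, 25.5 and 36.4 CPM in KO SHAM and 22.8, 29.7, 23.6 and 31.4 CPM in WT SHAM. Groups overlapped in both genotypes, and the log2 fold change of Ifit2 was 0.26 (SE 0.18, adjusted p = 0.418). Ifit3 differed by 0.38 (SE 0.24, adjusted p = 0.371), the RNA sensor gene Ifih1 by 0.10 (SE 0.15, adjusted p = 0.741), and the interferon-induced GTPase gene Gbp2 by 0.24 (SE 0.22, adjusted p = 0.551), all on the log2 scale.

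**Figure D3:**
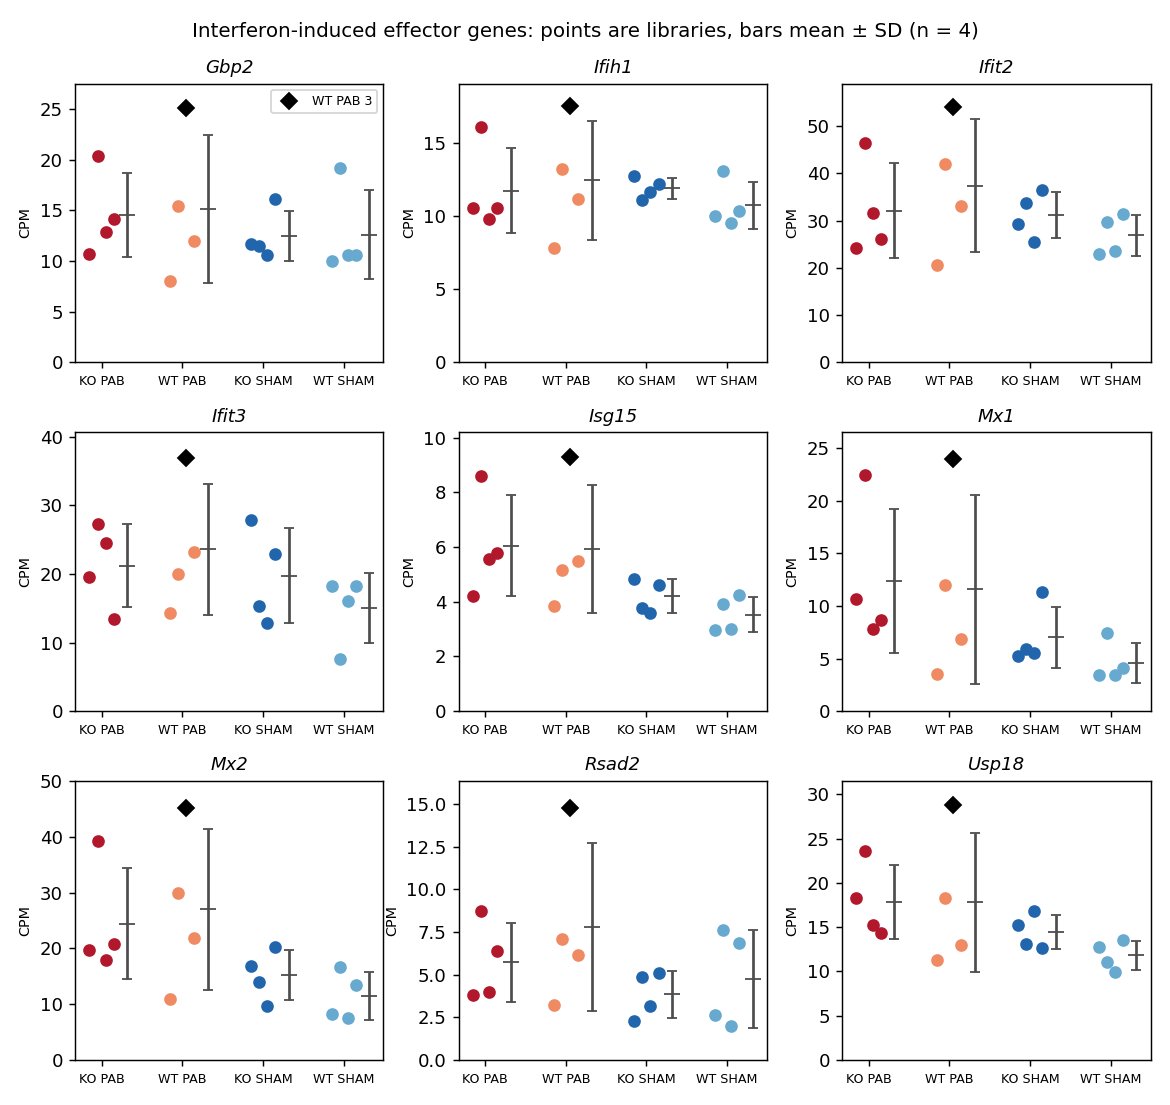
CPM of the 9 interferon-induced effectors by group; points are libraries, bars the mean ± SD (n = 4), and the black diamond is WT PAB 3. WT PAB 3 is the highest library in every panel, and banded and sham libraries overlap in every panel.

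The size of the effectors' difference depended on which banded library was left out. Summed over the 9 effectors the level was 122, 213, 129 and 120 CPM in KO PAB, 83.7, 163, 256 and 133 CPM in WT PAB, 126, 113, 99.4 and 142 CPM in KO SHAM, and 91.0, 116, 85.8 and 113 CPM in WT SHAM. KO PAB 2 and WT PAB 3 lay above every other library, and WT PAB 1 was the lowest of all 16. Within WT the median log2 fold change of the effectors was 0.65 with 9 of 9 above 0, and it was 0.27 with 8 of 9 above 0 when WT PAB 3 was left out. Within KO the median was 0.31 with 8 of 9 above 0, and 0.14 with 6 of 9 above 0 when KO PAB 2 was left out. Averaged over genotypes it was 0.29 without WT PAB 3 and 0.37, with 9 of 9 above 0, without KO PAB 2. Both libraries were picked as the highest, so these falls follow in part from that choice. Without WT PAB 1 the median was 0.83 in WT and 0.53 averaged, and without WT PAB 2 it was 0.73 in WT. Without KO PAB 1, KO PAB 3 or KO PAB 4 it was 0.34, 0.37 and 0.40 in KO, each with 9 of 9 above 0. Without the 3 sham libraries the medians were 0.47 averaged, 0.37 in KO and 0.57 in WT.

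Within KO, banding was tested against the KO SHAM libraries. Isg15 differed by 0.52 (SE 0.26, adjusted p = 0.344), Mx1 by 0.82 (SE 0.51, adjusted p = 0.484), Mx2 by 0.68 (SE 0.40, adjusted p = 0.443) and Usp18 by 0.31 (SE 0.24, adjusted p = 0.604) on the log2 scale. The member median was 0.01, with 23 of 46 above 0, beside −0.02 and 46.3% over all tested genes. Groups that did not overlap were found in 0 members on the higher and 2 on the lower side (RT1-CE6 and RT1-M3-1), beside 5.86% and 4.32% of all tested genes. Within WT, where banding was tested against WT SHAM, Mx2 differed by 1.24 (SE 0.40, adjusted p = 0.363), Isg15 by 0.75 (SE 0.26, adjusted p = 0.363), Mx1 by 1.32 (SE 0.52, adjusted p = 0.380) and Usp18 by 0.60 (SE 0.25, adjusted p = 0.385). Here the member median was 0.21 with 34 of 46 above 0, beside −0.02 and 47.0% of all tested genes, and 0 members had groups that did not overlap in either direction, beside 2.60% (higher) and 2.33% (lower) of all tested genes. Without the 3 sham libraries 33 of 46 members lay above 0 in KO (median 0.10), beside 6891 of 13583 tested genes (median 0.005). In WT 35 of 46 members did (median 0.27), beside 7132 of 13583 tested genes (median 0.01), and 0 members passed in KO or WT.

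**Figure D4:**
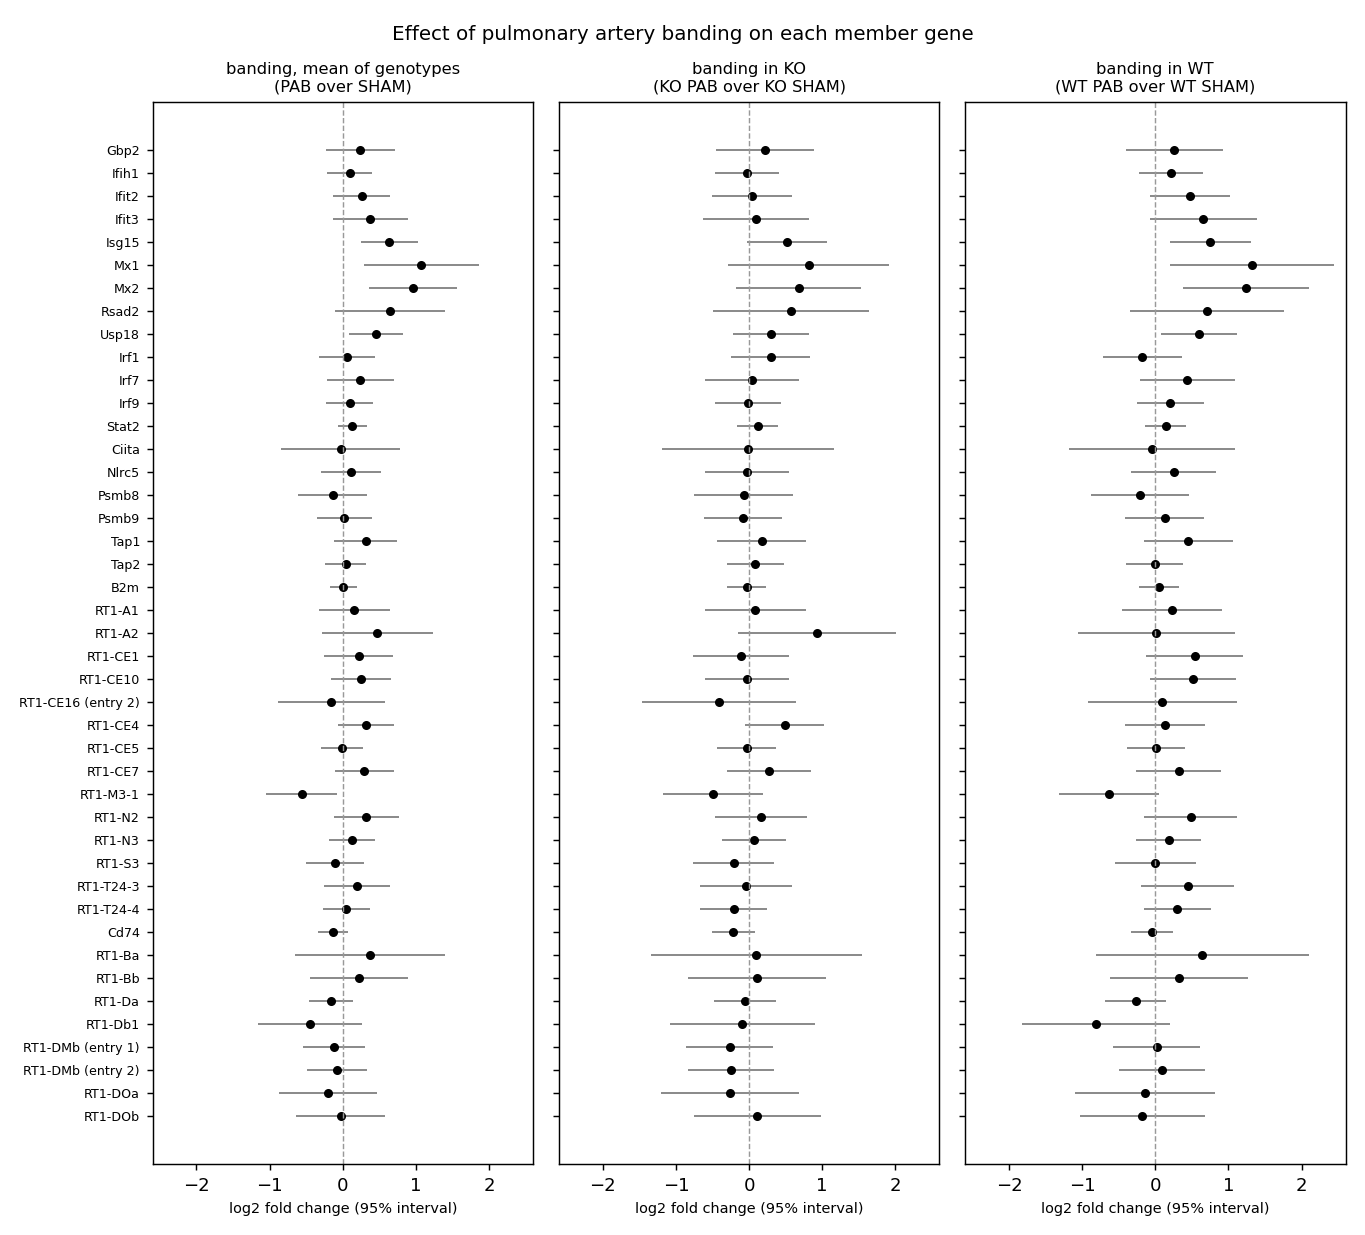
Log2 fold change of each member with its 95% interval for banding averaged over genotypes, banding in KO and banding in WT; RT1-CE6 and both RT1-DMa entries are left out because groups of them hold libraries at 0. The 9 effectors, at the top, lie right of 0 in the averaged and WT panels, with Mx1 and Mx2 farthest out.

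The signalling transcription factors varied less. Irf7, the factor that amplifies the type I response and had the most counts of its role, had 24.3, 30.9, 16.0 and 28.0 CPM in KO PAB, 16.0, 28.2, 39.1 and 23.1 CPM in WT PAB, 18.5, 17.0, 23.7 and 36.9 CPM in KO SHAM and 21.2, 22.6, 12.5 and 22.2 CPM in WT SHAM. WT PAB 3 was its highest library and WT SHAM 3 its lowest, and the groups overlapped. For averaged banding Irf7 differed by 0.24 (SE 0.21, adjusted p = 0.535), Irf9 by 0.09 (SE 0.15, adjusted p = 0.754), Stat2 by 0.13 (SE 0.09, adjusted p = 0.422) and Irf1, a factor downstream of interferon gamma, by 0.06 (SE 0.18, adjusted p = 0.880) on the log2 scale. Stat2 had the narrowest 95% interval of these, −0.07 to 0.33.

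Among the transactivators, Nlrc5, the activator of class I genes, had 3.16, 4.15, 3.19 and 3.40 CPM in KO PAB, 2.23, 3.42, 6.04 and 2.74 CPM in WT PAB, 3.97, 2.19, 4.29 and 3.73 CPM in KO SHAM and 2.58, 3.19, 2.97 and 3.41 CPM in WT SHAM. Apart from the high value in WT PAB 3 its groups covered the same range, and the averaged banding difference was 0.11 (SE 0.19, adjusted p = 0.776). Ciita, the activator of class II genes, was low and uneven, with 0.414, 0.724, 1.25 and 0.567 CPM in KO PAB, 0.653, 1.10, 1.50 and 1.47 CPM in WT PAB, 0.279, 1.04, 0.680 and 0.988 CPM in KO SHAM and 0.461, 2.46, 0.466 and 1.44 CPM in WT SHAM. Its highest library was WT SHAM 2, which has high mesothelial markers, and its lowest was KO SHAM 1. The averaged banding difference of Ciita was −0.03 (SE 0.38, adjusted p = 0.973).

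Banded and sham libraries overlapped for all 4 genes of peptide supply. Tap1, a subunit of the peptide transporter, had 9.42, 11.0, 7.40 and 8.72 CPM in KO PAB, 5.84, 12.5, 14.3 and 7.40 CPM in WT PAB, 6.29, 5.03, 9.18 and 11.8 CPM in KO SHAM and 5.95, 8.66, 7.52 and 7.19 CPM in WT SHAM. WT PAB 3 was again the highest library, and the ranges of banded and sham libraries overlapped. On the log2 scale averaged banding gave 0.31 (SE 0.20, adjusted p = 0.373) for Tap1, 0.04 (SE 0.13, adjusted p = 0.893) for its partner Tap2, and −0.14 (SE 0.22, adjusted p = 0.756) and 0.02 (SE 0.18, adjusted p = 0.956) for the immunoproteasome subunits Psmb8 and Psmb9. Tap2 was highest in KO SHAM 4 and Psmb8 in WT SHAM 2, both among the 3 sham libraries that stand apart, and Psmb8 in WT SHAM 2 reached 12.0 CPM against 3.93 CPM in its lowest library, WT PAB 4. Without those 3 libraries averaged banding gave −0.06 to 0.52 for the 4 genes, with a median of 0.21 and 3 of 4 above 0. There 0 of 4 passed, and 2 of 4 were higher at an unadjusted p under 0.05, beside 1788 of 13583 tested genes.

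MHC class I was led in counts by B2m, the light chain shared by class I molecules. B2m had 626, 656, 677 and 665 CPM in KO PAB, 643, 729.9, 799.7 and 779.8 CPM in WT PAB, 838, 557, 671 and 616 CPM in KO SHAM and 775, 748, 732 and 597 CPM in WT SHAM. Its range was narrow and covered by the KO SHAM libraries alone. B2m differed by 0.01 (SE 0.09, adjusted p = 0.963) for averaged banding, with a 95% interval of −0.18 to 0.20, and by −0.13 (SE 0.09, adjusted p = 0.991) between genotypes. RNA of whole tissue cannot tell fewer cells of a type from less RNA per cell, for B2m or for any other member.

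The class I heavy chain entries lay on both sides of 0. For averaged banding their log2 fold changes ran from −0.56 for RT1-M3-1 to 0.47 for RT1-A2, leaving aside RT1-CE6, and 11 of 16 class I entries lay above 0. RT1-M3-1, an M3-type class Ib entry that by name corresponds to a mouse molecule known for presenting formylated peptides, had 3.35, 4.23, 4.62 and 4.29 CPM in KO PAB, 3.15, 4.10, 5.78 and 3.86 CPM in WT PAB, 4.87, 4.91, 5.27 and 8.18 CPM in KO SHAM and 3.73, 11.6, 6.91 and 3.74 CPM in WT SHAM. Every KO PAB library was below every KO SHAM library, but WT PAB and WT SHAM overlapped, and the 3 highest libraries were WT SHAM 2, KO SHAM 4 and WT SHAM 3, the sham libraries that stand apart. The averaged difference was −0.56 (SE 0.23, adjusted p = 0.156), and −0.05 (adjusted p = 0.872) without those 3 libraries. RT1-S3 was also highest in KO SHAM 4 and WT SHAM 2, at 71.6 and 64.1 CPM against 31.8 to 57.7 CPM elsewhere. Whether the other cell types in these libraries bear on the values was not tested.

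RT1-A2, a classical class I entry, split the libraries within every group. It had 22.3, 23.0, 23.2 and 6.31 CPM in KO PAB, 21.9, 8.92, 7.76 and 6.13 CPM in WT PAB, 7.69, 15.4, 7.14 and 9.03 CPM in KO SHAM and 21.5, 8.55, 7.84 and 6.45 CPM in WT SHAM. In order of level, 6 libraries (KO PAB 1, KO PAB 2, KO PAB 3, WT PAB 1, KO SHAM 2 and WT SHAM 1) had 15.4 CPM or more, and the next had 9.03 CPM. RT1-CE4 was highest in the same 6 libraries, though with little step between the sixth at 6.12 CPM and the seventh at 5.99 CPM. The second RT1-CE16 entry was lowest in the same 6, with 0.660 CPM or less against 0.744 CPM or more. Of the 6 libraries 3 are KO PAB libraries, and the banding difference of RT1-A2 was 0.93 (SE 0.50, adjusted p = 0.400) in KO and 0.02 (SE 0.50, adjusted p = 0.994) in WT.

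**Figure D5:**
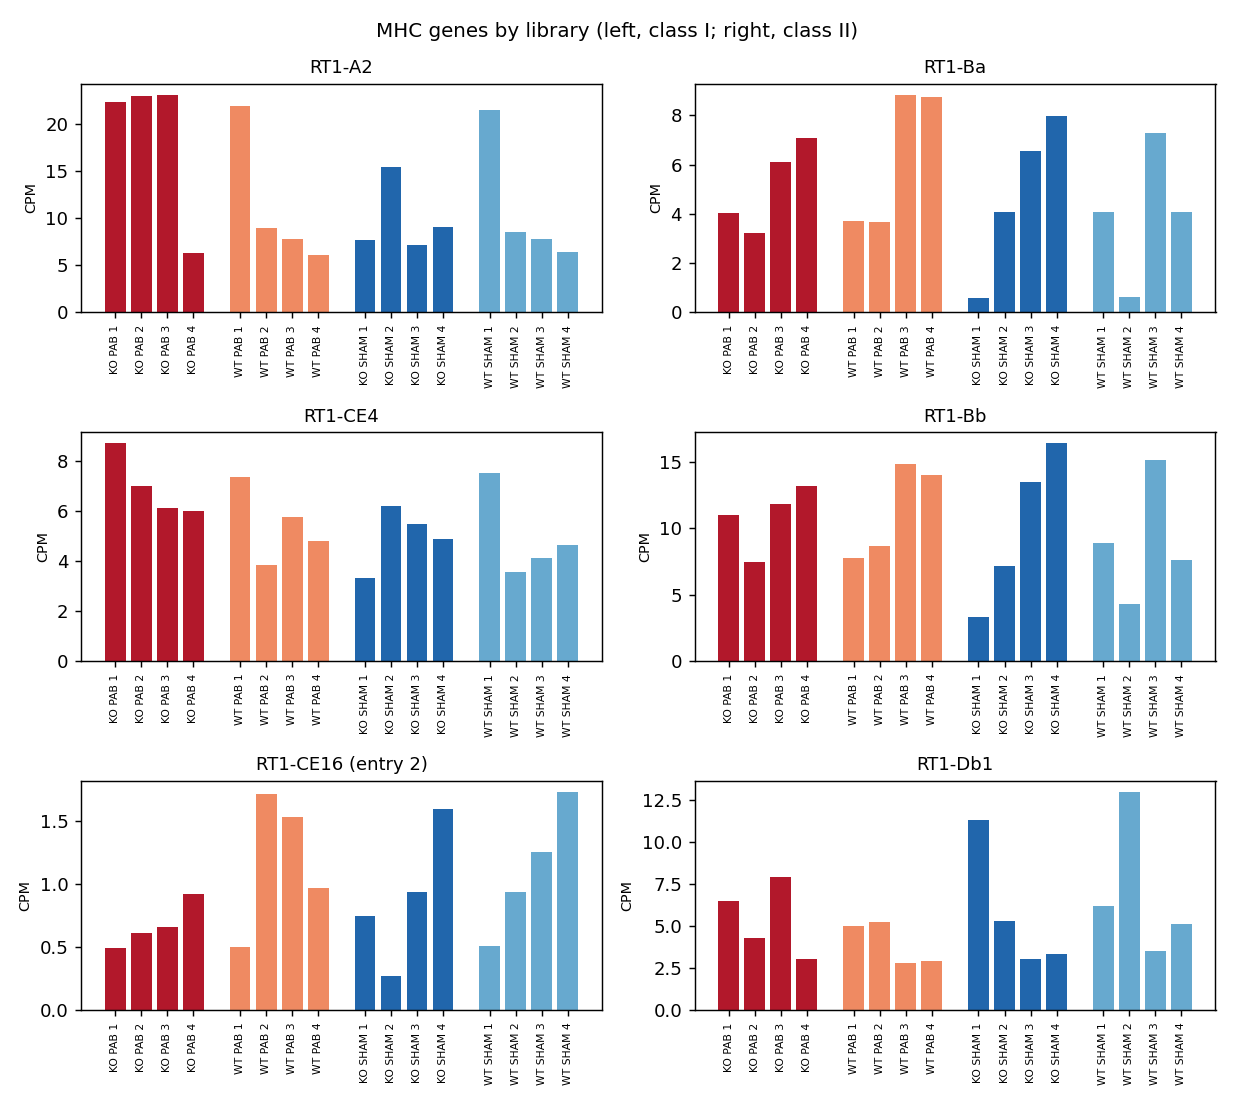
CPM of 3 class I entries (left) and 3 class II genes (right) in each library; bars are single libraries, coloured by group and ordered by replicate number. RT1-A2 is at 15.4 CPM or more in 6 libraries of all 4 groups, and RT1-Ba is under 1 CPM in KO SHAM 1 and WT SHAM 2, the libraries where RT1-Db1 is highest.

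A second split of the libraries appeared in class II and in part of class I. RT1-Ba and RT1-Bb, the alpha and beta chain of the rat RT1-B molecule, were lowest in KO SHAM 1 and WT SHAM 2. RT1-Ba had 4.03, 3.24, 6.12 and 7.09 CPM in KO PAB, 3.69, 3.65, 8.85 and 8.75 CPM in WT PAB, 0.589, 4.07, 6.54 and 7.96 CPM in KO SHAM and 4.06, 0.615, 7.27 and 4.07 CPM in WT SHAM, so that these 2 libraries were under 1 CPM and the next lowest was at 3.24 CPM. RT1-Bb had 3.32 CPM in KO SHAM 1 and 4.33 CPM in WT SHAM 2, against 7.14 CPM or more in the other 14 libraries. RT1-Db1, a beta chain of the RT1-D molecule, was highest in the same 2 libraries, with 11.3 and 13.0 CPM against at most 7.92 CPM elsewhere. RT1-Da, the RT1-D alpha chain, did not follow them so sharply, with 34.1 CPM in KO SHAM 1 and 39.3 CPM in WT SHAM 2 within an overall range of 20.2 to 39.3 CPM.

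These library splits were chosen after the values were seen and are described only. As background, RT1 genes are many, similar in sequence and variable between rats, and the counting could divide the reads of near-identical copies among entries. RT1 values of single entries are therefore uncertain, and the part of the counting in these splits was not tested.

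No class II entry passed the test. Cd74, with the most counts of class II, had 229, 176, 181 and 184 CPM in KO PAB, 174, 188, 211 and 217 CPM in WT PAB, 261, 226, 223 and 181 CPM in KO SHAM and 244, 174, 181 and 218 CPM in WT SHAM. Its averaged banding difference was −0.13 (SE 0.10, adjusted p = 0.445) with a 95% interval of −0.34 to 0.08. On the same scale RT1-Da differed by −0.16 (SE 0.14, adjusted p = 0.524), RT1-Ba by 0.37 (SE 0.48, adjusted p = 0.685) and RT1-Bb by 0.22 (SE 0.31, adjusted p = 0.718). RT1-Db1 differed by −0.45 (SE 0.33, adjusted p = 0.442). The chains RT1-DOa and RT1-DOb, which regulate peptide loading, were low, at 0.142 to 0.552 CPM and 0.179 to 0.691 CPM over all libraries, and differed by −0.20 (SE 0.32, adjusted p = 0.750) and −0.03 (SE 0.28, adjusted p = 0.963).

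Repeated entries gave unequal values. RT1-DMa, the alpha chain of the molecule that loads class II peptides, had 80, 78, 128 and 72 counts in its first entry in KO PAB, 48, 0, 56 and 49 in WT PAB, 39, 32, 20 and 139 in KO SHAM and 47, 78, 77 and 41 in WT SHAM. The second entry had 1, 0, 0 and 1 counts in KO PAB, 32, 64, 32 and 0 in WT PAB, 32, 0, 33 and 0 in KO SHAM and 1, 32, 1 and 0 in WT SHAM. The second entry thus took only the values 0, 1, 32, 33 and 64, and the first was at 0 in WT PAB 2, where the second was at 64. Summed over both entries the counts were 73 to 128 in KO PAB, 49 to 88 for WT PAB, 32 to 139 for KO SHAM and 41 to 110 for WT SHAM, and the groups overlapped. No fold is read from either entry alone. The partner chain RT1-DMb was listed in 2 entries whose counts differed by 0.0% to 11.8% within a library.

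RT1-CE6 had the lowest counts of the class I members, with 6, 0, 0 and 0 counts in KO PAB, 11, 11, 14 and 0 in WT PAB, 16, 11, 8 and 19 in KO SHAM and 5, 6, 6 and 8 in WT SHAM. Every KO PAB library was below every KO SHAM library, and in CPM every KO SHAM library was above every WT SHAM library, although the lowest KO SHAM count equals the highest WT SHAM count. With 3 of 4 KO PAB libraries at 0 the fitted banding difference in KO, −2.91 (SE 0.93, adjusted p = 0.143), depends on how 0 counts are treated. Leaving out KO PAB 1, which holds all 6 counts of that group, brought it past the test at −6.67 (adjusted p = 0.0361), and that value is no measure of size.

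Genotype was compared within each surgery to ask what loss of ERalpha does to these genes. In sham-operated ventricles, KO against WT, 29 of 46 members lay above 0 with 0.13 as median on the log2 scale, beside 46.1% and −0.02 over all tested genes. The smallest p-values were those of class I entries: RT1-CE10 differed by 0.59 (SE 0.28, adjusted p = 0.996), RT1-T24-3 by 0.43 (SE 0.30, adjusted p = 0.996) and RT1-CE1 by 0.42 (SE 0.31, adjusted p = 0.996). RT1-CE10 had 1.12, 0.998, 0.977 and 1.18 CPM in KO SHAM and 0.968, 0.790, 0.466 and 0.617 CPM in WT SHAM, with the groups just apart. It and RT1-CE6 were the 2 members higher in KO SHAM without overlap, beside 0.505% of all tested genes, and 0 were lower, beside 0.750%. Without the 3 sham libraries the difference of RT1-CE1 turned to −0.08.

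RT1-T24-3 had 12.2, 14.4, 16.8 and 19.0 CPM in KO SHAM and 9.22, 14.4, 8.31 and 14.2 CPM in WT SHAM, and RT1-CE1 had 1.74, 4.45, 4.21 and 5.24 CPM in KO SHAM and 3.96, 1.70, 2.72 and 3.37 CPM in WT SHAM. Both overlapped between the genotypes. In KO SHAM the lowest RT1-CE1 library was KO SHAM 1 and in WT SHAM it was WT SHAM 2, the libraries with the lowest RT1-Ba.

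In banded ventricles, KO against WT, 13 of 46 members lay above 0 with a median of −0.08, beside 49.2% of all tested genes. The smallest p-values belonged to both RT1-DMa entries and RT1-CE6, whose counts are given above. The first RT1-DMa entry was the 1 member higher in KO PAB without overlap, beside 1.69% of all tested genes, and 0 were lower, beside 1.63%. Summed over both RT1-DMa entries the genotypes overlapped, with 73 to 128 counts in KO PAB and 49 to 88 in WT PAB. The effectors with the largest banding differences had genotype means within 1 SD of each other: Isg15 averaged 6.04 ± 1.84 CPM in KO PAB and 5.95 ± 2.34 CPM in WT PAB, Mx2 24.4 ± 9.97 CPM in KO PAB and 27.0 ± 14.5 CPM in WT PAB, and Mx1 12.4 ± 6.85 CPM in KO PAB and 11.6 ± 8.95 CPM in WT PAB (SD, n = 4 each). Their 95% intervals for KO PAB over WT PAB were −0.52 to 0.56, −0.99 to 0.70 and −0.99 to 1.18 on the log2 scale, so that differences in either direction remain within them. Without WT PAB 3 the effectors' median for genotype in PAB turned to 0.22 with 9 of 9 above 0, against −0.09 with 3 of 9 above 0 in all libraries, and it was −0.30 without KO PAB 2 and −0.27 without WT PAB 1, each with 0 of 9 above 0.

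Averaged over both surgeries, 26 of 46 members lay above 0 with a median of 0.03, beside 46.9% and −0.01 over all tested genes. RT1-A1, a classical class I entry, had 9.64, 8.80, 8.17 and 10.6 CPM in KO PAB, 9.80, 19.5, 15.0 and 9.25 CPM in WT PAB, 8.15, 3.76, 10.6 and 12.5 CPM in KO SHAM and 7.01, 13.3, 11.1 and 14.1 CPM in WT SHAM. Its genotypes overlapped in both surgeries, and the difference was −0.45 (SE 0.23, adjusted p = 0.989). Ciita, given above, differed by −0.69 (SE 0.38, adjusted p = 0.990), and leaving out 1 library at a time gave −0.88 (without KO PAB 3) to −0.37 (without WT SHAM 2).

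The interaction asks whether banding acts differently in KO than in WT. The member median was −0.22 with 11 of 46 above 0, beside 0.01 and 51.4% over all tested genes. For the effectors 0 of 9 lay above 0, with a median of −0.29. Leaving out WT PAB 3, the highest library of all 9 effectors, turned their median to 0.04 with 5 of 9 above 0, and the member median was then −0.04. The effectors' median was −0.46 without WT PAB 1 and −0.45 without KO PAB 2, each with 0 of 9 above 0. Mx2 gave −0.56 (SE 0.56, adjusted p = 0.999), Mx1 −0.51 (SE 0.73, adjusted p = 0.999), Ifit3 −0.55 (SE 0.48, adjusted p = 0.999) and Isg15 −0.23 (SE 0.36, adjusted p = 0.999). Apart from RT1-CE6 and the second RT1-DMa entry, RT1-T24-4 had the smallest p, with 60.3, 96.3, 66.6 and 71.9 CPM in KO PAB, 56.8, 102, 104 and 98.0 CPM in WT PAB, 65.7, 92.0, 84.8 and 98.9 CPM in KO SHAM and 61.2, 91.8, 55.4 and 84.1 CPM in WT SHAM. Banding in KO less banding in WT gave −0.51 (SE 0.30, adjusted p = 0.999), and the groups overlapped in every pair.

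Other genes of the same pathways were taken from a list of interferons and receptors, signalling kinases, STATs and IRFs, sensors and adaptors, further antiviral effectors, chemokines, negative regulators, MHC gene transcription factors and antigen processing genes, of which 94 were tested. For averaged banding 3 of 94 rose and 0 fell (3.24% of all tested genes rose and 1.85% fell), and the median was 0.01 with 48 of 94 above 0. Ifngr2, a chain of the interferon gamma receptor, had 23.0, 22.6, 24.4 and 20.8 CPM in KO PAB, 20.3, 18.0, 19.4 and 17.9 CPM in WT PAB, 17.5, 19.3, 18.1 and 17.5 CPM in KO SHAM and 18.0, 16.0, 16.4 and 16.1 CPM in WT SHAM. Every KO PAB library was above every KO SHAM library, while in WT a single sham library, WT SHAM 1, reached the banded range. Ifngr2 rose by 0.26 (SE 0.05, adjusted p = 0.0134) on the log2 scale, or 0.23 (adjusted p = 0.0459) without the 3 sham libraries, and its adjusted p stayed between 0.000214 and 0.0459 over 23 alternatives.

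Lgmn, an endosomal protease that cuts antigens, had 129.6, 129, 149 and 119 CPM in KO PAB, 145, 114, 122 and 106 CPM in WT PAB, 101, 106, 109 and 99.5 CPM in KO SHAM and 98.5, 98.3, 103 and 111 CPM in WT SHAM. The KO groups did not overlap and the WT groups did. Lgmn rose by 0.29 (SE 0.07, adjusted p = 0.0236), and missed the threshold without the 3 sham libraries (0.27, adjusted p = 0.0598). Stat3, a transcription factor of interleukin-6 family cytokines, had 161, 192, 159 and 171 CPM in KO PAB, 171, 139, 138 and 121 CPM in WT PAB, 148, 127, 119 and 119.6 CPM in KO SHAM and 137, 108, 127 and 123 CPM in WT SHAM. It rose by 0.31 (SE 0.08, adjusted p = 0.0414), gave 0.26 (adjusted p = 0.0935) without the 3 sham libraries, and missed the threshold in 15 of 23 alternatives, where the adjusted p reached 0.0940.

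Within KO, Ifngr2 differed by 0.33 (SE 0.07, adjusted p = 0.0549) and Stat3 by 0.41 (SE 0.11, adjusted p = 0.101) for banding, and 0 of 94 passed. Within WT, 0 of 94 passed, and Herc6, which in mouse joins ISG15 to proteins, and the kinase gene Tbk1 came first, at 0.86 (SE 0.30, adjusted p = 0.364) and 0.23 (SE 0.08, adjusted p = 0.370). Between genotypes 0 of 94 passed in any comparison. Ifngr2 and Jak2, the kinase of the interferon gamma receptor, came first in PAB at 0.27 (SE 0.07, adjusted p = 0.999) and 0.33 (SE 0.12, adjusted p = 0.999) and averaged over surgeries at 0.19 (SE 0.05, adjusted p = 0.976) and 0.26 (SE 0.08, adjusted p = 0.989). In SHAM, Herc6 gave 0.84 (SE 0.30, adjusted p = 0.996) and the chemokine gene Ccl5 0.51 (SE 0.28, adjusted p = 0.996), the second of which turned to −0.03 without the 3 sham libraries. For the interaction, 0 of 94 passed, with Ifitm1 at 0.73 (SE 0.36, adjusted p = 0.999) and Epsti1 at 0.93 (SE 0.49, adjusted p = 0.999) first.

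Of the further antiviral effectors 38 were tested, 0 passed for averaged banding, and 26 lay above 0 with a median of 0.09. WT PAB 3 was the highest library of 18 of these 38 as well, and of 25 of the 94 pathway genes, against 2.59% of all tested genes. The interferon gene Ifnb1 had 1 count in all libraries together, and the interferon gamma gene Ifng had at most 2 counts in a library and counts in 6 libraries, so neither entered the test.

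Markers of cells that carry these genes are given for comparison. The 13 macrophage and monocyte markers summed to 159, 188, 386 and 167 CPM in KO PAB and 143 to 183 CPM in WT PAB. These markers summed to 115 to 327 CPM in KO SHAM and 109 to 355 CPM in WT SHAM, and WT PAB 3 was at 148 CPM. The 12 T and NK cell markers summed to 12.3 to 24.7 CPM in KO PAB, 9.95 to 16.4 CPM in WT PAB, with 16.3 to 29.0 CPM in KO SHAM and 14.1 to 31.5 CPM in WT SHAM, with WT PAB 3 at 16.4 CPM. For averaged banding 2 of 11 tested T and NK cell markers fell, beside 1.85% of all tested genes. In the 3 sham libraries that stood apart these markers summed to 20.8 to 31.5 CPM, against 9.95 to 24.7 CPM in the other 13, and without those 3 libraries 0 of 12 tested passed (3 of 12 were lower at an unadjusted p under 0.05). Of 12 tested macrophage markers 0 passed in any comparison. Their log2 fold change lay above 0 for 12 of 12 for genotype in PAB (median 0.44), 12 of 12 for the interaction (median 0.73), 9 of 12 for banding in KO (median 0.10), 0 of 12 for banding in WT (median −0.54) and 2 of 12 for averaged banding (median −0.23). The 3 sham libraries held 250 to 355 CPM of macrophage markers, against 109 to 386 CPM in the other 13. Without them the count above 0 was 9 of 12 for banding in WT (median 0.16) and 11 of 12 for averaged banding (median 0.42). It was then 12 of 12 for banding in KO (median 0.56) and 12 of 12 for genotype in PAB (median 0.44). For the interaction it was 10 of 12, and the median was 0.37. The 7 endothelial markers summed to 429 to 573 CPM in KO PAB, 470, 558, 567 and 553 CPM in WT PAB, with 409 to 624 CPM in KO SHAM and 424 to 619 CPM in WT SHAM. WT PAB 1 was the lowest of its group for these markers, and the other WT PAB libraries lay close together at 553 to 567 CPM. KO PAB 2 was at 495 CPM. In WT PAB 3, where the effectors were highest, the macrophage sum lay within the range of the other WT PAB libraries. The 7 dendritic cell markers summed to 10.3 to 16.5 CPM and the 7 B cell markers to 0.775 to 3.51 CPM over all libraries. Batf3 and Siglech, of the dendritic list, were at 0 in 11 and 13 of 16 libraries. KO PAB 2, the other library with high effectors, had 188 CPM for macrophage markers and 15.9 CPM for T and NK cell markers, and the part of cell content in the members' levels was not tested.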

How the data were processed

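RNA from right ventricle was sequenced as poly(A) libraries prepared with a stranded kit, per the labels' protocols. The deposited values are expected counts per gene symbol, given as whole numbers, which the authors made with STAR 2.5.3a and RSEM 1.3.0 on build Rnor_6.0, per the submitters' processing notes. The annotation, the strand setting and how the estimates became whole numbers are not given in the sources used here. Genes that overlap, and near-identical RT1 copies, could share reads.

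Groups and replicate numbers came from the sample labels. Counts were filtered with filterByExpr (minimum count 10), normalized by TMM and tested with edgeR 4.0.16 (quasi-likelihood test, robust, 4 group means, R 4.3.3) over 13458 genes, and every adjusted p in the text is a Benjamini-Hochberg value of this fit over all of them unless an alternative is named, with 0.05 as threshold and called genes under it. The procedure was tested on simulated data first. The 7 comparisons share libraries: averaged comparisons and the interaction use all 4 groups. SE is the log2 fold change divided by the root of its F value. Groups were said not to overlap when every library of one was above every library of the other.

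The members, the gene lists and the 3 sham libraries left out in places were chosen with earlier results of these data known. Values per library are given for members with the smallest p in a comparison, for the member of each role with the most counts, and for listed pathway genes that passed or had the smallest p. Further members were described after their values were seen. Replicates of a group differed by more than sampling noise, with 18.2 to 154 as chi-square per degree of freedom. Same-numbered libraries of different groups did not deviate together, so the numbers were not used as pairs. The alternatives were DESeq2 1.42.0, limma-voom 3.58.1, edgeR with RLE size factors, no filter, a filter of 1 CPM in 4 libraries, a replicate block, only the groups compared, no 3 sham libraries and each library left out in turn. Promoter sequence came from RefSeq (GRCr8), read as 250 bases before the start, and no coordinate was carried between builds.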

Additional observations from a re-analysis of the deposited data

Results flagged for a closer look

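Within groups of 4 libraries, a single library stood far from the other 3 (Dixon's test at the 95% level) in 22 of 184 member-by-group sets. For normal and independent values chance would flag about 1 in 20 groups, or 9.2. Some sets hold few counts, and members can vary together within a library, so 9.2 is only a rough guide. Of the 22 flags, 5 were in WT SHAM 2 and 4 in KO SHAM 4, which are among the 3 sham libraries with high mesothelial markers.

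In KO PAB, 7 values stood apart. KO PAB 2 was high for Mx2 with 39.3 CPM, against 18.0 to 20.8 CPM in the other KO PAB libraries, and for Ifih1 with 16.1 CPM against 9.82 to 10.6 CPM. KO PAB 1 was high for Cd74 with 229 CPM against 176 to 184 CPM, and for RT1-CE6 with 0.226 CPM, which is 6 counts, against 0. KO PAB 3 was high for RT1-CE5 with 11.9 CPM against 9.71 to 10.1 CPM. KO PAB 4 was low for RT1-A2 with 6.31 CPM against 22.3 to 23.2 CPM, and for RT1-DOa with 0.142 CPM, which is 4 counts, against 0.440 to 0.457 CPM. In WT PAB, the first RT1-DMa entry was at 0 CPM in WT PAB 2, against 1.79 to 1.89 CPM, and RT1-T24-4 was low in WT PAB 1 with 56.8 CPM against 98.0 to 104 CPM.

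KO SHAM 4 was high for Mx1 with 11.3 CPM against 5.24 to 5.91 CPM in the other KO SHAM libraries, for RT1-M3-1 with 8.18 CPM against 4.87 to 5.27 CPM, for Tap2 with 11.6 CPM against 6.06 to 6.63 CPM, and for the first RT1-DMa entry with 3.82 CPM against 0.850 to 1.23 CPM. KO SHAM 1 was high for Psmb8 with 8.59 CPM against 5.22 to 5.54 CPM, and KO SHAM 2 was low for RT1-CE5 with 8.10 CPM against 11.2 to 11.7 CPM. WT SHAM 2 was high for Gbp2 with 19.2 CPM against 9.96 to 10.6 CPM in the other WT SHAM libraries, for Mx1 with 7.41 CPM against 3.44 to 4.11 CPM, for RT1-S3 with 64.1 CPM against 34.0 to 39.1 CPM, and for Tap2 with 10.3 CPM against 7.70 to 8.10 CPM. It was also high for the second RT1-DMa entry with 0.937 CPM, which is 32 counts, against 0 to 0.0461 CPM. WT SHAM 1 was high for RT1-A2 with 21.5 CPM against 6.45 to 8.55 CPM, and WT SHAM 3 was low for Irf7 with 12.5 CPM against 21.2 to 22.6 CPM.

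WT PAB 3, the highest library for all 9 effectors, was flagged for 0 members. The causes of these values were not tested.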

How the results depend on the processing

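The count of members past the test was 0 in every comparison and every alternative that was run, with these exceptions. DESeq2 gave 3 members for averaged banding, Isg15 (adjusted p = 0.0156), Mx1 (0.0242) and Mx2 (0.00833). Leaving out 1 library at a time gave 0 to 2 members for averaged banding: 2 without KO PAB 1, 2 without WT PAB 1 and 1 without WT SHAM 4. It gave 0 to 1 for banding in KO, where the 1 was RT1-CE6 without KO PAB 1. Of the values of single genes 810 kept their direction and side of the threshold, 13 passed it, 16 no longer passed it (Stat3 in 15, Lgmn in 1) and 2 turned: without the 3 sham libraries, genotype in SHAM gave −0.025 for Ccl5 and −0.084 for RT1-CE1. The cause was not tested.

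Over all tested genes, averaged banding had 685 calls, 1337 with DESeq2 and 356 to 964 with 1 library left out. Banding in KO had 85 calls, 509 with DESeq2, 155 with only the groups compared, 344 without the 3 sham libraries and 0 to 275 with 1 library left out. Banding in WT had 1 call, 108 with DESeq2. With the replicate number as a block, 0 members passed in any comparison, and averaged banding had 496 calls and banding in KO 0. Same-numbered libraries correlated at −0.583 to 0.473, with 6 of 24 pairs over 0.1, and 2 of 16 libraries correlated best with their own number, so the numbers were not taken as pairing. A fit to only the groups compared does not exist for the averages and the interaction, and RT1-CE6 and the second RT1-DMa entry have no value in those fits. Under the stricter filter, at least 1 CPM in 4 libraries, RT1-CE6, RT1-DOa and RT1-DOb were not tested. These 3 had at most 19, 17 and 21 counts in a library, which limits the precision of their values.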
